A study of Drosophila melanogaster with 12 samples.

Results

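The cytochrome P450 genes of the male foreleg of Drosophila melanogaster are described here. The members are all genes whose symbol is Cyp followed by digits, lower-case letters and digits, with the social-behaviour genes Cyp6a20 and Cyp4d21 and the oenocyte gene Cyp4g1 left out. The rule used names only and no measured value. It found 84 genes before the 3 were left out, and the 81 members are among 17807 gene identifiers in the count table. They comprise 79 protein-coding genes and 2 pseudogenes in 20 families. By family number, 38 belong to the CYP3 clan, 30 to the CYP4 clan, 9 to the mitochondrial clan and 4 to the CYP2 clan. Cyp6a21, another annotated gene of this family, was not analysed here.

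Cytochrome P450 enzymes carry a haem group and insert an oxygen atom into their substrate. Most insect P450s sit in the endoplasmic reticulum and receive electrons from cytochrome P450 reductase (Cpr), in some reactions also from cytochrome b5, whereas the mitochondrial clan is served by ferredoxin and ferredoxin reductase. Many members of the CYP3 clan and of the Cyp12 family oxidise plant toxins and insecticides, the CYP4 clan is known for work on fatty acids and other lipids, and the CYP2 clan holds several enzymes of ecdysteroid hormone metabolism. Related P450 genes often lie side by side in the genome, as copies that arose by tandem duplication.

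RNA was sequenced from forelegs of males of 4 genotypes, with 3 biological replicates each. The strains were CO13N, CS and RG11N, to which the series adds a hybrid of CS and CO13N. The series calls CO13N and the hybrid selective, and CS and RG11N promiscuous. The labels state no transgene, treatment or age, and neither the direction nor the generation of the hybrid cross. They do not say whether legs of several males were pooled, or whether replicates came from separate cultures, so p-values measure the spread between these libraries. In RNA from a whole leg, fewer cells of a type and less RNA per cell cannot be told apart.

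Total counts per library ranged from 26374831 to 36034966. Neuronal genes were present in every library (elav, nSyb, Syt1, brp and para together 3453 to 5710 CPM, each gene's counts scaled to a common library total), whereas a list of 5 genes of testis and accessory gland did not exceed 0.842 CPM. The libraries differed in muscle RNA (a list of 12 genes, 1352 to 14486 CPM) and in odorant receptor RNA, which marks antenna. The 60 odorant receptor genes, of which 11 had no count, summed to 88.6 to 250 CPM in CS replicates 1 to 3, hybrid replicate 3 and RG11N replicate 3, and to 13.4 to 24.1 CPM in the other 7 libraries. All 3 CS libraries are on the high side, so in comparisons with CS the odorant receptor level and the strain cannot be fully told apart. Calls that ended in a fit with this sum as an added term, called the odorant receptor covariate below, are named beside the results.

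P450 transcripts made up 0.854 to 1.42% of all counts in a library, and 1 gene dominated them. Cyp313a1, a CYP4-clan gene, accounted for 54.7 to 77.1% of the P450 counts of each library. On the scale of CPM per kilobase of exon, which allows levels of different genes to be compared, it stood at 4567 and ranked 13th of 13883 protein-coding genes. The next were Cyp6d5 at 331, Cyp4e2 at 220, Cyp6w1 at 204, Cyp9f2 at 192, Cyp4p1 at 117 and Cyp4d20 at 106 CPM per kilobase. Of these 7 most abundant members, 4 belong to the CYP4 clan and 3 to the CYP3 clan.

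Another 19 members lay between 10 and 100 CPM per kilobase, 27 between 1 and 10, and 24 below 1 but with at least 1 count. The remaining 4 (Cyp9c1, Cyp6a18, Cyp4d14 and Cyp4d2) were listed at 0 in all 12 libraries, which by counting error alone allows up to 0.00796 CPM. Cyp9c1, Cyp4d14 and Cyp4d2 lie almost wholly opposite another gene. How reads from such bases were assigned is not stated, so this limit may not hold for them. A total of 49 members had a count in every library. Of the 81 members, 72 passed the filter on low counts and were tested. The 9 that were not tested are those 4 and Cyp309a1, Cyp309a2, Cyp6d2, Cyp313a2 and Cyp304a1.

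**Figure D1:**
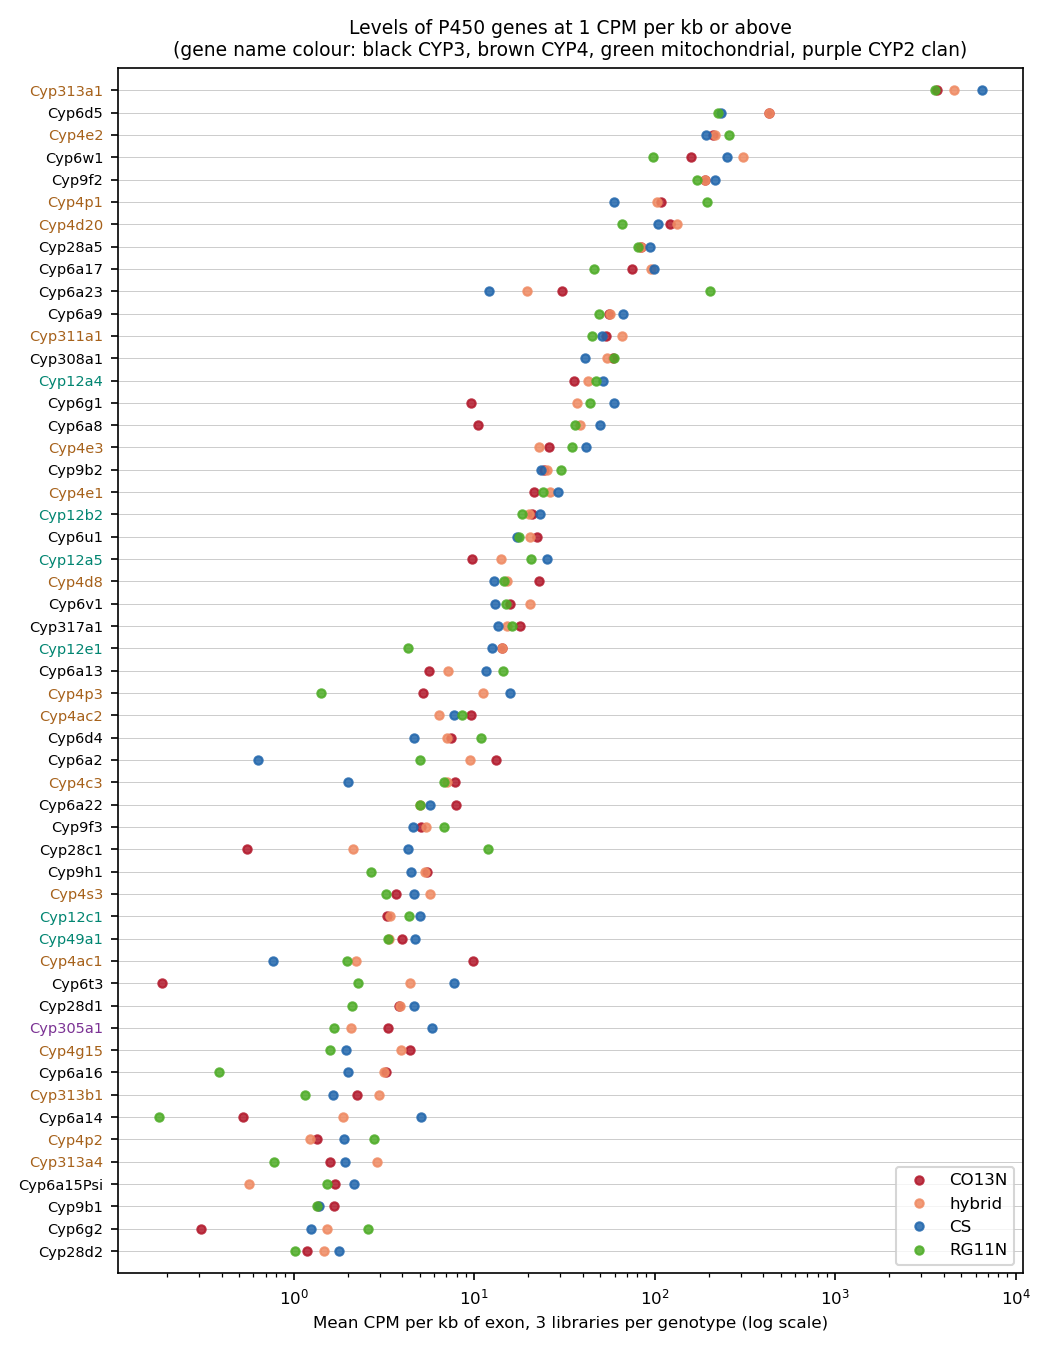
Mean level of each P450 gene at 1 CPM per kilobase or above, on a log axis in CPM per kilobase of exon, with 1 point per genotype (mean of 3 libraries). Cyp313a1 lies apart at the top, and the points of Cyp6a23, Cyp4p3, Cyp6a2 and Cyp6a14 are spread widely between genotypes.

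Sums over a clan differed less between genotypes than several single genes did. The CYP3 clan summed to 2312 ± 58.1 CPM in CO13N (mean ± SD, n = 3 in this and the following values), 2791 ± 564 in the hybrid, 2149 ± 283 in RG11N, and 2423 ± 469 in CS. The CYP4 clan without Cyp313a1 summed to 1097 ± 6.44, 1128 ± 68.4, 1198 ± 41.0 and 955 ± 95.7 CPM in the same order. The mitochondrial clan reached 159 ± 11.96, 176 ± 24.0, 179 ± 3.36 and 222 ± 44.9 CPM. The CYP2 clan stayed between 4.31 and 12.8 CPM in its genotype means, the lowest of the 4 clans.

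Differences between genotypes were tested with edgeR's quasi-likelihood test, with Benjamini-Hochberg adjustment over all 10996 genes tested, and a gene was called at an adjusted p under 0.05. In the test for any difference among the 4 genotypes, 16 of the 72 P450 genes tested were called, against 6.47% of all genes. They were spread over 3 clans: 8 of 33 tested in the CYP3 clan, 6 of 27 in the CYP4 clan and 2 of 9 in the mitochondrial clan. The CYP2 clan had 0 of 3, with 0 at an unadjusted p under 0.05 and 0 by DESeq2. With the odorant receptor covariate 11 of the 16 calls were kept, and those of Cyp12a5, Cyp313a1, Cyp4ac1, Cyp4e3 and Cyp6a13 were lost. Cyp28c1 was gained. Over all genes tested, 711 were called without this covariate and 500 with it. Among the 16, RG11N had the lowest mean in 8 and CS the highest in 7. Matching shares over all genes called were not computed, so these counts are not read as a P450 trait. A further 3 members were called in a pairwise comparison only, which brings the number called at least once to 19.

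Called members lay in the upper 3 level classes, both inside and outside tandem clusters. Of the 7 members at 100 CPM per kilobase or above, 5 were called for any difference, as were 6 of 19 at 10 to 100 and 5 of 27 at 1 to 10. Of the 19 tested members below 1 CPM per kilobase, 0 were called, 2 had an unadjusted p under 0.05, and DESeq2 called Cyp313a5. That gene had counts in RG11N alone and passed the filter only through it, so its DESeq2 call is no support for a difference. In the genome, 47 members lie in 17 clusters whose neighbours are at most 20 kb apart, and 34 stand alone. Of the tested members, 9 of 42 in clusters and 7 of 30 outside them were called. Calls fell in 5 of the 17 clusters, and 0 clusters had a call in each of their members. By chromosome arm, 9 of 31 tested members on 2R, 4 of 13 on 3R, 2 of 11 on 2L and 1 of 6 on 3L were called. Of 11 tested on the X chromosome 0 were called, 2 had an unadjusted p under 0.05, and DESeq2 called 2. Over all genes tested, 6.47% were called. Shares over all genes of the same level class, cluster setting or arm were not computed. These counts are therefore not read as a trait of P450 genes.

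**Figure D2:**
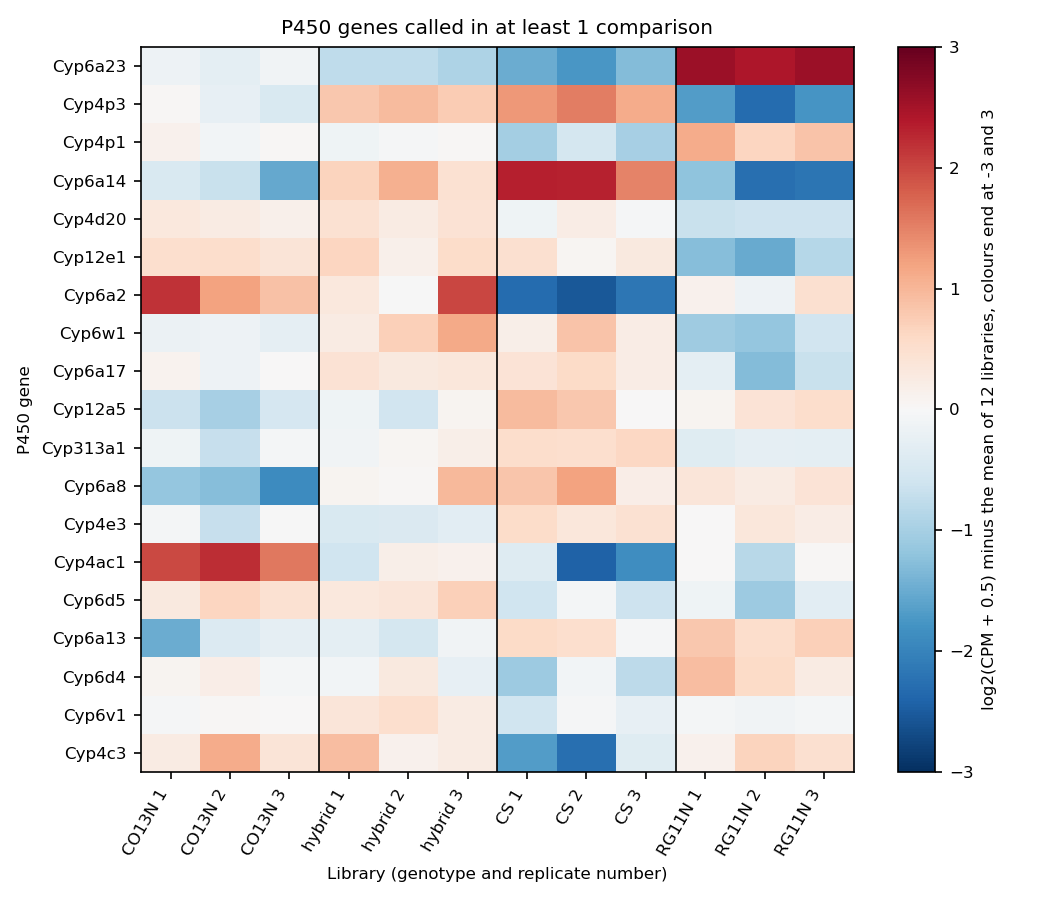
The 19 P450 genes called in at least 1 comparison (rows, ordered by the lowest p among the comparisons that called each gene) in the 12 libraries (columns). Colour shows log2(CPM + 0.5) minus the gene's mean over the 12 libraries, ending at -3 and 3; Cyp6a23 is red in the 3 RG11N libraries, and Cyp6a2 is blue in the 3 CS libraries.

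The largest P450 cluster, on 2R at 14871366 to 14903095 (build dm6), holds 7 members of the CYP3 clan, Cyp6a22, Cyp6a17, Cyp6a23, Cyp6a19, Cyp6a9, Cyp6a8 and Cyp317a1. Of these, Cyp6a23, Cyp6a17 and Cyp6a8 were called for any difference, and each had its own order of genotypes. Cyp6a23 (2R, 14875829 to 14877654, plus strand) showed the lowest p of all P450 genes. It stood at 55.1, 49.7 and 56.9 CPM in CO13N, at 36.2, 35.9 and 31.9 in the hybrid, at 369, 332 and 366 in RG11N, and at 21.7, 18.1 and 24.5 in CS. The 4 genotypes did not overlap, RG11N was highest and CS lowest, and the hybrid lay between its parents. RG11N exceeded CS by 4.05 ± 0.15 on the log2 scale (± standard error here and below, edgeR adjusted p = 2.62e-12). CO13N exceeded CS by 1.33 ± 0.14 (adjusted p = 4.93e-06), and the hybrid exceeded CS by 0.69 ± 0.13 (adjusted p = 0.0110). The last call was lost without CS replicate 2, hybrid replicate 1 or hybrid replicate 2 (adjusted p up to 0.0815) and with the odorant receptor covariate.

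Cyp6a17, which lies directly before Cyp6a23 on the same strand (14873953 to 14875739) and is known for a role in temperature preference, had a different order. It stood at 140, 117 and 130 CPM in CO13N, 174, 159 and 162 in the hybrid, 105, 52.2 and 81.3 in RG11N, and 172, 193 and 151 in CS. The RG11N libraries lay below all others. RG11N was lower than CS by a log2 difference of -1.11 ± 0.19 (adjusted p = 0.00124), and the hybrid exceeded RG11N by 1.06 ± 0.19 (adjusted p = 0.00271). Its call in CO13N versus RG11N (log2 difference 0.70 ± 0.19, adjusted p = 0.0433) was lost in 9 of 12 omissions of a library, all but those of CS replicates 2 and 3 and RG11N replicate 1, with an adjusted p of up to 0.145, and with the odorant receptor covariate.

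Reads that fit several places in the genome can be shared out between such neighbouring copies in ways the sources do not state. Levels of Cyp6a17 and Cyp6a23 are therefore also given as a sum. It came to 183 ± 14.7 CPM in CO13N, 200 ± 9.14 in the hybrid, 435 ± 45.9 in RG11N, and 193 ± 18.1 in CS. Cyp6a23 formed 8.59 to 14.0% of it in CS, 16.4 to 18.4% in the hybrid, 28.3 to 30.4% in CO13N and 77.9 to 86.4% in RG11N. Outside RG11N the sum ranged from 166 to 211 CPM in single libraries, while the share of Cyp6a23 differed between genotypes without overlap, and in RG11N both the sum and the share were higher.

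Cyp6a8 (14887171 to 14889010, minus strand), which is known to respond to xenobiotics, was the member low in CO13N. It stood at 22.3, 20.7 and 13.4 CPM there, against 54.3, 52.0 and 99.9 in the hybrid, 65.9, 60.3 and 68.3 in RG11N, and 91.5, 118 and 58.1 in CS. CO13N lay below all other libraries, and the other 3 genotypes overlapped. It was lower in CO13N than in CS by a log2 difference of -2.24 ± 0.32 (adjusted p = 0.00215) and than in RG11N by -1.79 ± 0.31 (adjusted p = 0.00847; 0.0554 without CO13N replicate 2). Cyp6a9, another gene of this cluster, named after its values were seen, was not called for any difference (adjusted p = 0.524) and ranged from 70.8 to 176 CPM.

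The Cyp4p cluster of the CYP4 clan (2R, 9237512 to 9244410) showed opposite orders in adjacent genes. Cyp4p1 (9240041 to 9242139, plus strand) stood at 195, 168 and 184 CPM in CO13N, 163, 176 and 183 in the hybrid, 385, 281 and 323 in RG11N, and 88.1, 123 and 89.8 in CS. RG11N was above and CS below all other libraries, while CO13N and the hybrid overlapped. RG11N exceeded CS by 1.71 ± 0.15 on the log2 scale (adjusted p = 9.50e-07). CO13N exceeded CS by 0.86 ± 0.15 (adjusted p = 0.00196) and was lower than RG11N by a log2 difference of -0.86 ± 0.15 (adjusted p = 0.00226).

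Cyp4p3, the next gene (9242320 to 9244410, plus strand), stood at 10.4, 8.44 and 7.22 CPM in CO13N, 18.1, 20.2 and 17.7 in the hybrid, 2.82, 1.64 and 2.61 in RG11N, and 25.7, 30.4 and 22.5 in CS. No genotype overlapped another, and the order was the reverse of Cyp4p1 at both ends. RG11N was lower than CS by a log2 difference of -3.47 ± 0.27 (adjusted p = 1.43e-07) and lower than the hybrid, which exceeded it by 2.98 ± 0.27 (adjusted p = 2.34e-06). CO13N was lower than CS by -1.59 ± 0.25 (adjusted p = 6.15e-04; 0.0561 with the odorant receptor covariate) and exceeded RG11N by 1.87 ± 0.26 (adjusted p = 1.96e-04). Cyp4p3 was the minor copy everywhere: it formed 19.8 to 22.6% of the sum of both genes in CS and 0.579 to 0.804% in RG11N. The sum was 127 ± 23.6 CPM in CS and 332 ± 52.7 in RG11N, with CO13N at 191 ± 14.3 and the hybrid at 193 ± 10.1. How reads common to both copies were counted is not stated, and its part in these shares was not tested.

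A further cluster on 2R (8564187 to 8572147) holds Cyp6a14, the pseudogene Cyp6a15Psi and Cyp6a13. Cyp6a14 (minus strand) stood at 2.15, 1.78 and 0.741 CPM in CO13N, 5.23, 7.09 and 4.45 in the hybrid, 1.05, 0.249 and 0.291 in RG11N, and 17.6, 17.5 and 9.71 in CS. CS was above all other libraries and the hybrid next, while CO13N and RG11N overlapped. RG11N was lower than CS by a log2 difference of -4.78 ± 0.58 (adjusted p = 3.94e-05) and CO13N lower than CS by -3.26 ± 0.53 (adjusted p = 9.81e-04). The hybrid exceeded RG11N by 3.36 ± 0.55 (adjusted p = 0.00112).

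Cyp6a13 (8570499 to 8572147, plus strand) divided the libraries by the selective and promiscuous labels instead. It stood at 4.93, 10.8 and 12.04 CPM in CO13N and 11.8, 10.04 and 13.5 in the hybrid, against 26.1, 21.2 and 24.2 in RG11N, and 22.1, 20.9 and 14.4 in CS. The libraries of the selective genotypes all lay below those of the promiscuous ones. CO13N was lower than RG11N by a log2 difference of -1.36 ± 0.29 (adjusted p = 0.00826) and the hybrid lower than RG11N by -1.02 ± 0.28 (adjusted p = 0.0464). The call in the hybrid was lost in 7 of 12 omissions (CS replicate 2 and each hybrid and RG11N replicate), with an adjusted p of up to 0.164. The odorant receptor covariate ended it too. Against CS, CO13N differed by -1.04 ± 0.28, which missed the threshold (adjusted p = 0.0523). The hybrid was not called against CS either, so neither selective genotype was.

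**Figure D3:**
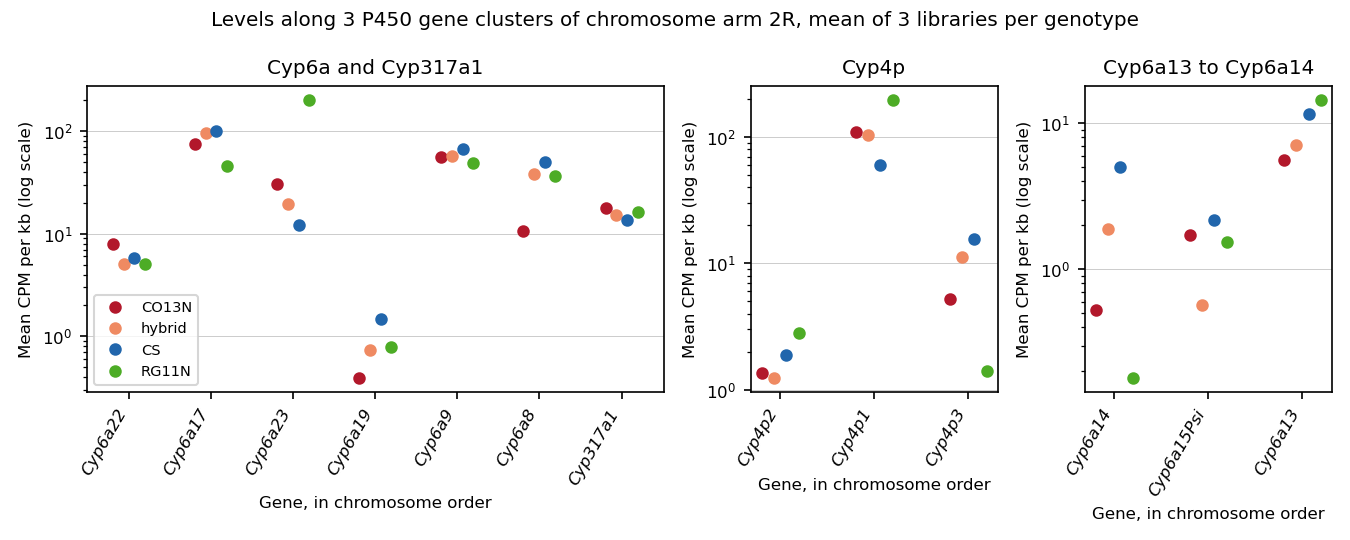
Mean level in CPM per kilobase of exon (log axis) of the genes along 3 P450 clusters of chromosome arm 2R, in chromosome order, with 1 point per genotype (mean of 3 libraries). Adjacent genes differ in their order of genotypes: RG11N is lowest at Cyp6a17 and highest at Cyp6a23, and highest at Cyp4p1 and lowest at Cyp4p3.

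Among CYP3-clan genes that stand alone, Cyp6a2, Cyp6w1 and Cyp6d5 were called for any difference. Cyp6a2 (2R, 6779749 to 6781491, minus strand), a gene known from insecticide resistance, stood at 34.7, 17.9 and 14.1 CPM in CO13N, 9.35, 7.33 and 31.3 in the hybrid, 8.09, 6.55 and 10.6 in RG11N, and 1.09, 0.856 and 1.25 in CS. CS lay below all other libraries, and the replicates of CO13N and of the hybrid varied widely. CO13N exceeded CS by 4.38 ± 0.59 on the log2 scale (adjusted p = 9.81e-04) and RG11N exceeded CS by 2.97 ± 0.56 (adjusted p = 0.00783). The hybrid exceeded CS by 3.90 ± 0.58 (adjusted p = 0.00558), a call lost without any 1 of the 3 CS replicates (adjusted p up to 0.0805). The RG11N call was lost without CS replicate 1 or CS replicate 2 (adjusted p up to 0.0751).

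Cyp6w1 (2R, 6173684 to 6176195, plus strand), also studied for its part in insecticide resistance, stood at 388, 396 and 360 CPM in CO13N, 521, 721 and 969 in the hybrid, 210, 196 and 293 in RG11N, and 497, 791 and 510 in CS. RG11N was below all other libraries, and CO13N lay below the hybrid and CS, which overlapped. The hybrid exceeded RG11N by 1.66 ± 0.24 on the log2 scale (adjusted p = 0.00117), and RG11N was lower than CS by -1.36 ± 0.24 (adjusted p = 0.00332). The difference between CO13N and RG11N, 0.71 ± 0.23, did not pass (adjusted p = 0.124).

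Cyp6d5 (3R, 14029228 to 14031483, plus strand), the second most abundant P450 transcript, separated the selective from the promiscuous genotypes. It stood at 623, 797 and 702 CPM in CO13N and 637, 654 and 829 in the hybrid, against 461, 238 and 411 in RG11N, and 335, 489 and 330 in CS. All 6 selective libraries were above all 6 promiscuous ones. CO13N exceeded RG11N by 0.94 ± 0.23 on the log2 scale (adjusted p = 0.0334), and so did the hybrid, by 0.93 ± 0.23 (adjusted p = 0.0310). The first call was lost without any 1 of the 3 CO13N replicates or RG11N replicate 2 or 3 (adjusted p up to 0.162). The second was lost without CO13N replicate 3, any 1 of the 3 hybrid replicates, or RG11N replicate 2 or 3 (adjusted p up to 0.134). Against CS the differences were of similar size and did not pass, with 0.88 ± 0.23 in CO13N (adjusted p = 0.0523) and 0.88 ± 0.23 in the hybrid (adjusted p = 0.117). The call for any difference (adjusted p = 0.0163) was lost without CO13N replicate 2 or RG11N replicate 3 (adjusted p up to 0.0531).

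In the CYP4 clan, the abundant Cyp313a1 (3R, 14521049 to 14523064, plus strand) was highest in CS. It stood at 10363, 10208 and 10966 CPM in CS, 6656, 7464 and 8106 in the hybrid, 6517, 4398 and 6913 in CO13N, and 5572, 5959 and 5817 in RG11N. CS lay above all other libraries, the hybrid overlapped CO13N and lay above RG11N, and CO13N overlapped RG11N. RG11N was lower than CS by a log2 difference of -0.86 ± 0.15 (adjusted p = 0.00153) and CO13N by -0.82 ± 0.15 (adjusted p = 0.00320). With the odorant receptor covariate the latter was -0.70 and no longer passed (adjusted p = 0.214).

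Cyp4d20 (3L, 2476259 to 2478448, minus strand) and Cyp4e3 (2L, 9747839 to 9750071, minus strand) differed by smaller folds. Cyp4d20 stood at 232, 221 and 206 CPM in CO13N, 257, 220 and 252 in the hybrid, 117, 122 and 121 in RG11N, and 170, 217 and 180 in CS. RG11N lay below all other libraries and was lower than CS by -0.66 ± 0.13 on the log2 scale (adjusted p = 0.00321). CO13N exceeded RG11N by 0.88 ± 0.13 (adjusted p = 3.84e-04), and the hybrid by 1.02 ± 0.13 (adjusted p = 8.64e-05).

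Cyp4e3 stood at 52.8, 33.4 and 54.0 CPM in CO13N and 39.8, 40.5 and 43.4 in the hybrid, against 55.2, 69.6 and 63.9 in RG11N, and 80.8, 69.6 and 75.5 in CS. The selective libraries were all below the promiscuous ones. The hybrid was lower than CS by a log2 difference of -0.87 ± 0.17 (adjusted p = 0.0110) and CO13N by -0.69 ± 0.17 (adjusted p = 0.0276). The first was lost without CS replicate 1, hybrid replicate 1 or hybrid replicate 2 (adjusted p up to 0.0652), and the second without CO13N replicate 2 or CS replicate 1 (adjusted p up to 0.161). Both were lost with the odorant receptor covariate. The hybrid also differed from RG11N, by -0.61 ± 0.17 (adjusted p = 0.0448), a call lost without any 1 of the 3 hybrid replicates or RG11N replicate 2 or 3 (adjusted p up to 0.165) and with that covariate.

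Cyp4ac1 (2L, 5264001 to 5265899, plus strand), the first of 3 Cyp4ac copies, was high in CO13N. It stood at 16.8, 19.9 and 12.5 CPM there, 2.37, 4.48 and 4.25 in the hybrid, 3.90, 1.96 and 3.97 in RG11N, and 2.85, 0.311 and 0.696 in CS. CO13N lay above all other libraries, which overlapped each other. CO13N exceeded CS by 3.66 ± 0.63 on the log2 scale (adjusted p = 0.00282; 0.0670 with the odorant receptor covariate). It exceeded RG11N by 2.32 ± 0.59 (adjusted p = 0.0368), which was lost without CO13N replicate 1 or 2, hybrid replicate 2 or 3, or any 1 of the 3 RG11N replicates (adjusted p up to 0.158) and with that covariate.

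The abundant Cyp4e2 and Cyp9f2 were not called by edgeR in any comparison; DESeq2 called Cyp4e2 in RG11N versus CS and for any difference. Cyp4e2 (2R, 8444560 to 8447164, plus strand) stood at 353, 410 and 442 CPM in CO13N, 364, 433 and 434 in the hybrid, 484, 492 and 499 in RG11N, and 321, 384 and 391 in CS. RG11N lay above all other libraries without overlap, and its excess over CS was 0.43 on the log2 scale (95% interval 0.13 to 0.73, adjusted p = 0.0604). Cyp9f2 (3R, 12403340 to 12406028, minus strand), of the CYP3 clan, stood at 357, 307 and 334 CPM in CO13N, 313, 304 and 383 in the hybrid, 309, 285 and 310 in RG11N, and 359, 429 and 350 in CS. For selective versus promiscuous its log2 difference was -0.02 (95% interval -0.24 to 0.19). Its highest genotype mean was 1.26 times its lowest.

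The mitochondrial clan contributed Cyp12e1 and Cyp12a5. Cyp12e1 (3R, 10434789 to 10436704, plus strand) stood at 23.8, 24.1 and 21.9 CPM in CO13N, 26.2, 18.6 and 24.5 in the hybrid, 6.58, 5.48 and 8.88 in RG11N, and 23.3, 17.2 and 20.3 in CS. RG11N lay below all other libraries, which overlapped each other. RG11N was lower than CS by a log2 difference of -1.54 ± 0.23 (adjusted p = 2.56e-04), and CO13N and the hybrid exceeded RG11N by 1.74 ± 0.23 and 1.73 ± 0.23 (adjusted p = 1.24e-04 and 1.44e-04).

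Cyp12a5 (3R, 19132648 to 19134704, plus strand) stood at 18.7, 14.4 and 20.3 CPM in CO13N, 26.7, 19.5 and 30.8 in the hybrid, 31.1, 39.1 and 42.2 in RG11N, and 56.9, 51.8 and 29.4 in CS. CO13N was lowest on average and lay below CS and RG11N, while the hybrid overlapped CO13N and CS. CO13N was lower than CS by a log2 difference of -1.37 ± 0.24 (adjusted p = 0.00199; 0.220 with the odorant receptor covariate) and lower than RG11N by -1.07 ± 0.24 (adjusted p = 0.0129). The latter was lost without CO13N replicate 2 or RG11N replicate 3 (adjusted p up to 0.0880) and with that covariate. Its neighbour Cyp12a4, known from resistance to the growth regulator lufenuron and named after its values were seen, was not called (adjusted p = 0.194 for any difference). Cyp12a5 formed 18.8 to 26.7% of the sum of both genes in CO13N and 30.6 to 35.7% in CS.

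**Figure D4:**
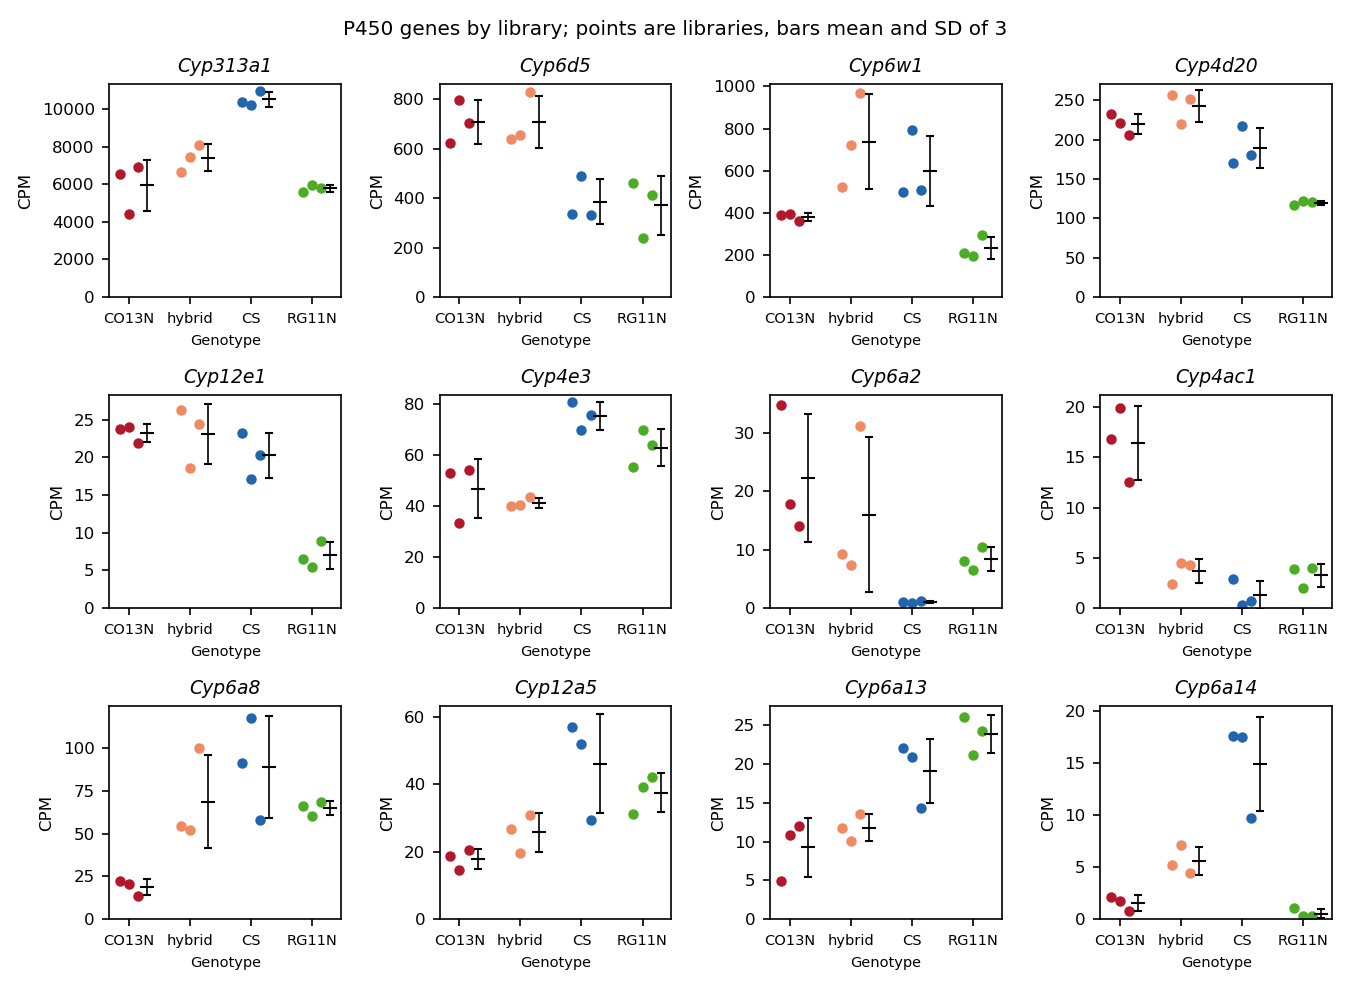
CPM of 12 P450 genes in each library; points are libraries, and bars show the mean and SD of 3 libraries per genotype. Cyp6d5, Cyp4e3 and Cyp6a13 separate CO13N and the hybrid from CS and RG11N without overlap, whereas Cyp4d20 and Cyp12e1 are low in RG11N alone.

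The comparison of selective with promiscuous genotypes, which averages CO13N and the hybrid against CS and RG11N, called 11 of 72 tested P450 genes, 6 higher and 5 lower, against 3.92% of all genes. Over all genes, 2.60% were higher and 1.32% lower. The median size of the log2 difference, regardless of direction, was 0.64 over the tested P450 genes and 0.21 over all genes tested. For the hybrid against its parental mean, where 0 P450 genes were called, these medians were 0.33 and 0.17. Genes of matching level were not compared. The sizes for selective versus promiscuous are therefore not read as a P450 trait. Higher were Cyp6a2 (2.65 ± 0.38 on the log2 scale, adjusted p = 0.00165), Cyp4ac1 (1.92 ± 0.42, adjusted p = 0.0146), Cyp12e1 (0.96 ± 0.16, adjusted p = 0.00101), Cyp6d5 (0.91 ± 0.16, adjusted p = 0.00458), Cyp4p3 (0.69 ± 0.17, adjusted p = 0.0292) and Cyp4d20 (0.62 ± 0.09, adjusted p = 3.22e-04). Lower were Cyp6a8 (-1.08 ± 0.22, adjusted p = 0.0173), Cyp6a13 (-1.03 ± 0.20, adjusted p = 0.00464), Cyp6a23 (-1.01 ± 0.09, adjusted p = 2.57e-06), Cyp12a5 (-0.96 ± 0.17, adjusted p = 0.00196) and Cyp4e3 (-0.65 ± 0.12, adjusted p = 0.00276).

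This p weighs the spread of libraries inside genotypes, and other selective or promiscuous strains were not measured. Few of these 11 separated the 2 classes library by library. Cyp6d5 lay higher without overlap, and Cyp4e3 and Cyp6a13 lower without overlap, where 1.40% of all genes were clear above and 0.518% clear below. Cyp6u1, named after its values were seen, was also clear above but was not called (0.29 ± 0.10, adjusted p = 0.130). In the other 8 called genes libraries of the 2 classes overlapped. By genotype mean, Cyp12e1, Cyp4d20 and Cyp4p3 were lowest in RG11N, Cyp6a2 was lowest in CS, and Cyp4ac1 was highest in CO13N. Cyp6a8 and Cyp12a5 were lowest in CO13N, and Cyp6a23 was highest in RG11N and lowest in CS.

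Some calls in this averaged comparison were lost when a single library was omitted or the odorant receptor covariate was added. The call for Cyp4p3 was lost in 8 of 12 omissions of a library, all but those of CO13N replicate 3, CS replicate 2 and RG11N replicates 1 and 3 (adjusted p up to 0.0794), and that for Cyp6a8 was lost without CO13N replicate 2, CS replicate 1, hybrid replicate 1 or RG11N replicate 3 (adjusted p up to 0.0660). The odorant receptor covariate ended the calls for Cyp4ac1, Cyp4p3, Cyp6a13 and Cyp6a8, and Cyp6w1 was gained. Over all genes, this comparison called 431 without the covariate and 208 with it. The part of the odorant receptor level in the lost calls was not tested. Of 3 glial genes, loco and moody were higher in the selective genotypes by 0.61 and 0.63 on the log2 scale, and repo differed by -0.08 (adjusted p = 0.883). Of 5 neuronal genes, elav was lower by -0.46, and the other 4 differed by -0.32 to -0.16 and were not called. Their part in the P450 differences was not tested.

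Pairs of genotypes called between 1 and 12 P450 genes. RG11N versus CS called 12, 5 higher and 7 lower in RG11N, against 5.77% of all genes (2.94% higher and 2.83% lower). CO13N versus CS called 11, 5 higher and 6 lower (3.14% of all genes, with 1.79% higher and 1.35% lower), and 5 remained with the odorant receptor covariate. Over all genes, 345 were called without the covariate and 98 with it. CO13N versus RG11N called 11, 6 higher and 5 lower (4.10% of all genes, with 2.31% higher and 1.79% lower), but 6 without CO13N replicate 2 and 7 without RG11N replicate 3. Over all genes it called 451, and in those omissions 245 and 307, in the same order. The hybrid versus RG11N called 11, 7 higher and 4 lower (4.47% of all genes, with 2.76% higher and 1.71% lower).

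Markers of nerve tissue also differed in the comparisons with RG11N. Against CS, RG11N was higher in 3 of 5 neuronal genes (Syt1 by 0.57, nSyb by 0.55 and brp by 0.51 on the log2 scale) and lower in 1 of 3 glial genes (loco, -0.56). In CO13N versus RG11N and in hybrid versus RG11N, 2 of 5 neuronal genes, brp and elav, were higher in RG11N and 2 of 3 glial genes, loco and moody, were lower there. RG11N libraries had a neuronal sum of 5240 to 5710 CPM over the 5 genes, above the 3453 to 4984 CPM of the remaining 9 libraries. Their glial sum over the 3 genes was 119 to 176 CPM, which overlapped the 162 to 281 CPM of the remaining libraries. In CO13N versus CS, moody was called higher (0.60), 1 of 3 glial genes, and none of the 5 neuronal genes was called by edgeR (elav had the unadjusted p nearest to 0, 0.0467). The part of these markers in the P450 differences was not tested.

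The hybrid versus CS called 5, of which Cyp6a2, Cyp4p1, Cyp6v1 and Cyp6a23 were higher and Cyp4e3 was lower (0.973% of all genes, with 0.773% higher and 0.200% lower). This count was 2 without CS replicate 1, without hybrid replicate 1, without hybrid replicate 2, or with the odorant receptor covariate. Over all genes the count was 107, and under these changes 78, 76, 65 and 70, in the same order. These pairs share libraries and are not independent of each other.

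Besides the genes described, the pairs called Cyp4c3, Cyp6d4 and Cyp6v1, which are given here because they were called and not by the rule for detailed values. Cyp4c3 (3R, 30894038 to 30900688) stood at 2.62, 1.59 and 7.24 CPM in CS and at 10.4 to 21.2 CPM in the 9 other libraries. CO13N exceeded CS by 1.97 ± 0.47 on the log2 scale (adjusted p = 0.0333) and RG11N by 1.77 ± 0.47 (adjusted p = 0.0395), and each of these was lost in 8 of 12 omissions and with the odorant receptor covariate. The first survived without CO13N replicate 1, CS replicate 3 or hybrid replicate 1 or 2 (adjusted p otherwise up to 0.159), and the second without CO13N replicate 1 or 2, CS replicate 3 or hybrid replicate 1 (up to 0.166). The second was also lost with the muscle sum as a covariate. Cyp6d4 (3R, 22698319 to 22700307) was higher in RG11N, at 25.7, 19.9 and 15.9 CPM, than in CS, at 5.98, 12.6 and 7.52 (1.24 ± 0.28, adjusted p = 0.0116). That call was lost without CS replicate 1 or RG11N replicate 1 (adjusted p up to 0.0614) and with the odorant receptor covariate. Cyp6v1 on the X chromosome (20657122 to 20661425) stood at 61.4, 67.5 and 56.4 CPM in the hybrid and at 31.5 to 48.9 CPM elsewhere. Its difference between the hybrid and CS was 0.65 ± 0.15 (adjusted p = 0.0464). The call was lost in 9 of 12 omissions, all but those of CS replicate 2 and RG11N replicates 2 and 3 (adjusted p up to 0.271). It was also lost with RLE size factors, the odorant receptor covariate or the muscle sum as a covariate.

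Each genotype had P450 genes that lay clear of all libraries of the other 3. RG11N was clear below in Cyp12e1, Cyp4d20, Cyp4p3, Cyp6a16, Cyp6a17 and Cyp6w1, 6 of 72 tested against 3.06% of all genes. It was clear above in Cyp313a3, Cyp313a5, Cyp4e2, Cyp4p1 and Cyp6a23 (4.32% of all genes). Cyp313a3 and Cyp313a5 had counts in RG11N alone and passed the filter only through it, which fixed their place in advance. CS was clear above in Cyp313a1, Cyp4ac3, Cyp4e3, Cyp4p3 and Cyp6a14 (1.77% of all genes) and clear below in Cyp4c3, Cyp4p1, Cyp6a2 and Cyp6a23 (2.05% of all genes). CO13N was clear above in Cyp4ac1 and Cyp4d8 (1.20% of all genes) and clear below in Cyp6a8 (0.709% of all genes). The hybrid was clear above in Cyp311a1 and Cyp6v1 (0.446% of all genes).

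The hybrid was compared with its named parents. Against CO13N, 1 of 72 P450 genes was called, against 0.255% of all genes (0.200% higher and 0.0546% lower). This was Cyp6a8, higher in the hybrid by 1.87 ± 0.32 on the log2 scale (adjusted p = 0.0440) with no overlap of libraries. The call was lost in 10 of 12 omissions of a library, all but those of CS replicates 2 and 3 (adjusted p up to 0.258), with no filter on low counts and with the odorant receptor covariate. Without CS replicate 2 or CS replicate 3 the count was 2, with Cyp6a23 as the second gene. Against the log2 mean of both parents 0 of 72 were called by edgeR, against 0.109% of all genes, with 9 at an unadjusted p under 0.05. DESeq2 called 1, Cyp6a2, which edgeR put at 1.71 ± 0.43 above the parental mean (adjusted p = 0.384).

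For the 11 P450 genes called between CO13N and CS, the hybrid's place was read on a log2 scale that runs from 0 at CS to 1 at CO13N. Its median place was 0.613, and 10 of the 11 lay between the parents. The genes were chosen for a difference between the parents in these same libraries, which favours a place between them. The matching share over all genes called was not computed, so this count is not read as a P450 trait. They ranged from 0.167 in Cyp6a8, close to CS, through 0.307 in Cyp4p3, 0.521 in Cyp6a23 and 0.613 in Cyp313a1, to 0.922 in Cyp4p1 and 0.923 in Cyp4c3, both close to CO13N. Cyp4e3 lay outside the parental range, at 1.26, since its mean was 41.2 CPM in the hybrid, 46.7 in CO13N and 75.3 in CS. For Cyp4e3 the hybrid and CO13N libraries overlapped.

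Levels in a cluster on 2R at 12185667 to 12192436 divided the libraries as the odorant receptor sums did. Its 3 genes, chosen after their values were seen, are Cyp6g1, known for DDT resistance, Cyp6g2, and Cyp6t3, known for a role in ecdysteroid synthesis in the prothoracic gland. Cyp6g1 stood at 94.1, 172 and 103 CPM in CS, 219 in hybrid replicate 3 and 217 in RG11N replicate 3. In the 7 libraries with low odorant receptor sums it ranged from 3.31 to 29.2 CPM. Cyp6t3 ranged from 4.83 to 23.6 CPM in the same 5 libraries and from 0 to 1.32 in the other 7. Cyp6g2 ranged from 1.63 to 14.4 CPM and from 0 to 1.09.

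These 3 are the only tested P450 genes that lay clear above in the 5 libraries (0.846% of all genes did), and 0 lay clear below (0.373% of all genes). Their replicates within the hybrid and within RG11N thus differed widely, and edgeR called none of the 3 for any difference between genotypes (adjusted p = 0.744 for Cyp6g1, 0.661 for Cyp6t3 and 0.829 for Cyp6g2). For Cyp6g1 in the hybrid versus CS the 95% interval ran from -3.94 to 2.59 on the log2 scale. Cyp6g1 and Cyp6g2 overlap by 94 bases of exon on opposite strands, and whether counting used the strand is not stated. The part of antennal RNA in these levels was not tested.

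**Figure D5:**
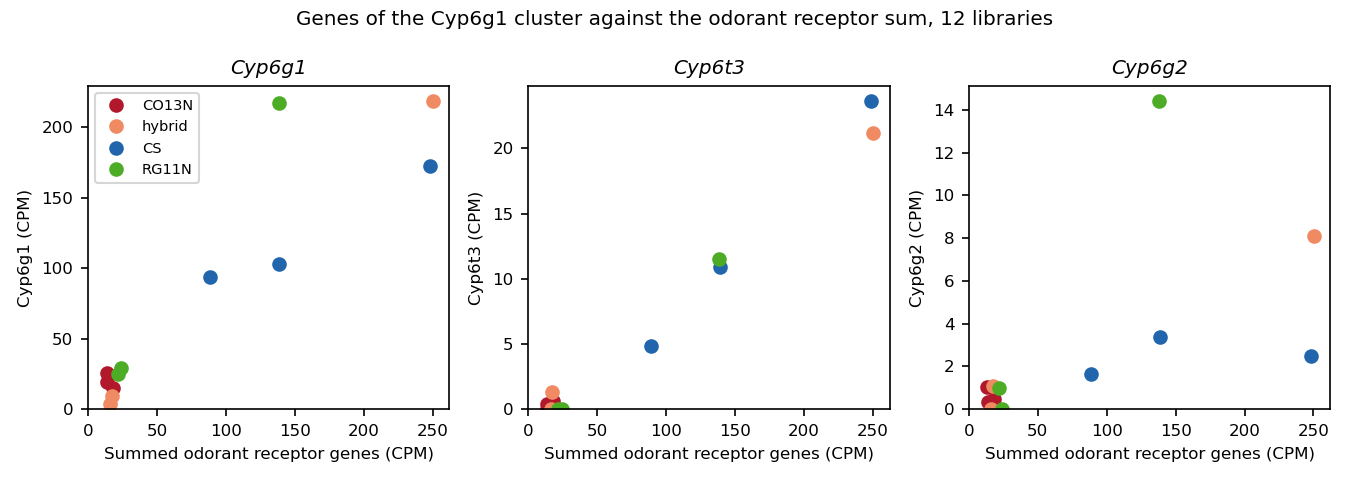
CPM of Cyp6g1, Cyp6t3 and Cyp6g2 against the summed CPM of 60 odorant receptor genes, 1 point per library, coloured by genotype. The 5 libraries at 88.6 to 250 CPM of odorant receptors (CS 1 to 3, hybrid 3 and RG11N 3) have the highest values of all 3 genes.

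A cluster on 3R (12232794 to 12239266) had counts in RG11N alone. Its 3 genes, Cyp313a5, Cyp313a2 and Cyp313a3, were also chosen after their values were seen. Cyp313a5 had 33, 27 and 40 counts in the RG11N libraries, Cyp313a2 had 33, 0 and 29, and Cyp313a3 had 31, 10 and 21, and all had 0 counts in the 9 other libraries. Set against 3 counts pooled over those 9 libraries, the pooled RG11N level was at least 100-fold higher in Cyp313a5. It was at least 62.2-fold higher in Cyp313a2, where RG11N replicate 2 had 0 counts, and in Cyp313a3. The genes were picked for this pattern, so these folds describe it and are no support for a difference. The levels were low, with 0.658 to 1.06 CPM in the pooled RG11N libraries. Cyp313a5 and Cyp313a3 did not pass for any difference in edgeR (adjusted p = 0.0916 and 0.176), and Cyp313a2 was not tested. Both tested genes entered the test only through RG11N, so their p-values cannot serve as support.

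Among the 4 members listed at 0, 3 lie almost wholly opposite another gene. Of their exon bases, 98.2% in Cyp9c1, 97.2% in Cyp4d14 and 98.7% in Cyp4d2 are also exon of a gene on the other strand. Cyp6a18 has no such overlap. In all, 21 members share exon bases with another gene, and how reads from such bases were assigned is not stated.

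Genes of electron supply to P450 enzymes and of haem synthesis, with the haem oxygenase gene Ho, were described from lists chosen by function. Of 6 redox partners tested, Cpr stood at 894 to 1122 CPM and Cyt-b5 at 889 to 1210 CPM in the genotype means. Cyt-b5 was higher in the hybrid than in RG11N by 0.45 ± 0.12 on the log2 scale (adjusted p = 0.0464). The same comparison called Urod, 1 of 7 haem genes tested, with the hybrid higher by 0.63 ± 0.14 (adjusted p = 0.0155). It called 4.47% of all genes. RG11N versus CS, which called 5.77% of all genes, called Ppox, another haem synthesis gene, with RG11N lower by -0.79 ± 0.19 (adjusted p = 0.0173).

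Of 6 regulators of detoxification genes, the same comparison called maf-S, a partner of the stress factor cnc, with RG11N lower by -0.62 ± 0.15 (adjusted p = 0.0142). In selective versus promiscuous, edgeR called 0 of these 19 genes, against 3.92% of all genes. There, 1 redox, 2 haem and 0 regulator genes had an unadjusted p under 0.05, and DESeq2 called 0. The lists are too short to be set apart from such shares. Of the 6 ecdysteroid P450 genes that carry other names, sad alone was tested. It had 117 counts over all libraries, and shd and phtm had 0.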

How the data were processed

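The deposited values are counts per FlyBase gene in 12 libraries. Per the labels, they come from polyA RNA of male forelegs (PicoPure with TriZol, Nextera XT), and per the submitters' processing notes Subread and dm6 were used. Versions, strand setting and the treatment of reads that fit several places are not given in the sources used here. The annotation was Ensembl release BDGP6 (the dm6 assembly), in which 17710 of 17807 identifiers (99.46%) were found. A total of 0 columns were left unassigned.

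Tests used edgeR 4.0.16 in R 4.3.3. Library sizes were scaled by TMM, and filterByExpr (minimum count 10) kept 10996 genes. All 4 genotype means were fitted together, leaving 8 residual degrees of freedom, and tested by robust quasi-likelihood F tests. Adjusted p-values were Benjamini-Hochberg values over all genes tested. Standard errors come from the F statistic. CPM used TMM-scaled library sizes, and sums over gene lists used total counts. The pipeline was tested on simulated data. A gene of the haem list is not reported here.

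Values were given in full for members called in selective versus promiscuous, in hybrid versus CO13N or against the parental mean, for the 12 members with the lowest p for any difference, and for the 6 highest by CPM per kilobase. Any other is said to be chosen after its values were seen. Members, lists and tests were chosen with earlier results of these data known. Reaching 3 counts takes 0.0833 to 0.114 CPM in a library; such floors cover counting error only. Alternatives were RLE size factors, other filters, DESeq2 1.42.0, a replicate block, odorant receptor or muscle sums as covariates, and omission of each library. Replicate numbers were not taken to pair the libraries, since not every same-number correlation exceeded 0.1. Figures used matplotlib 3.10.9.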

Additional observations from a re-analysis of the deposited data

How the results depend on the processing

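No log2 difference of a called member changed sign under any alternative run. Of 546 values for the 78 calls under the other settings 507 kept the call, and 49 calls kept it throughout; with 1 library omitted, 828 of 936 did. The number of called members moved by over 1.5 times in the following cases. With summed odorant receptor RNA as a covariate it was 5 for CO13N versus CS, 2 for hybrid versus CS and 0 for hybrid versus CO13N. Over all genes these comparisons called 98, 70 and 13 with that covariate, against 345, 107 and 28 without it. DESeq2 called 8 for hybrid versus CS, 4 for hybrid versus CO13N and 1 for the hybrid against the parental mean. For hybrid versus CO13N, RLE factors and the muscle covariate each gave 2. Omitting single libraries gave 6 to 12 for CO13N versus RG11N, 2 to 6 for hybrid versus CS and 0 to 2 for hybrid versus CO13N. The causes were not tested. Libraries of the same replicate number correlated at -0.0894 to 0.209 in their deviations (median 0.0247), against -0.128 to 0.0964 for other numbers (median -0.0274). Of 12 libraries, 9 had a higher mean correlation with their own number, and 6 had their single highest correlation with their own number. With the replicate block, 12 members were called for CO13N versus RG11N, 0 for hybrid versus CO13N and 19 for any difference, and the other counts equalled those without it, with some genes exchanged. The block ended the calls of Cyp4c3 against CS in CO13N and in RG11N, of Cyp6d5 against RG11N in CO13N and in the hybrid and for any difference, of Cyp6a13 in hybrid versus RG11N, and of Cyp6a8 in hybrid versus CO13N and in selective versus promiscuous. The search for promoter motifs was not run, because no promoter sequence was used here.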
